A study of Mus musculus with 4 samples.

Results

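Cultured mouse muscle stem cells that carried high Myog and high Cdkn1c messenger RNA but no Ckm messenger RNA were described. A cell was a member where its deposited value was at least 10 for Myog, at least 7 for Cdkn1c and 0 for Ckm, on the log2(CPM + 1) scale (CPM, counts scaled to the same total in each cell). There were 166 such cells among 5913, and they are called Cdkn1c-high cells here. The cells were chosen by these measured values, so every contrast of these cells with other cells is a description of the same data and carries no test. The cells came from 4 single-cell libraries of muscle stem cells from wild-type C57BL/6 mice, labelled young or aged with no age in weeks, and held for 7 days on a polydimethylsiloxane (silicone) surface of 12 kPa (soft) or 29 kPa (stiff). All 4 groups shared the medium, DMEM with 10% fetal bovine serum. Each combination of age and stiffness was 1 library, and the labels used here do not say how many animals gave cells to it. No difference between libraries therefore has a replicate check, and an animal, a culture and a library cannot be told apart from age or stiffness.

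Muscle stem cells leave the cell cycle as they commit to differentiation. In that step the transcription factor myogenin (Myog) is switched on after Myod1, cyclin-dependent kinase inhibitors block further division, and the contractile and metabolic genes of muscle follow later. Cdkn1c encodes the inhibitor p57, an imprinted gene expressed from the maternal chromosome, whose domain is silenced on the paternal chromosome under control of the long noncoding RNA Kcnq1ot1. Ckm encodes the muscle creatine kinase, a gene of later differentiation.

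The promoters of 3 genes that were high in the cells are shown because each holds an E-box, the short motif that the myogenic transcription factors, myogenin among them, recognise. The E-boxes searched were CAGCTG and CAGGTG on both strands, and a match is in capitals. The sequences are the RefSeq promoters of build GRCm38.p6, each 300 bases long and ending 50 bases past the annotated start. Dbn1, which encodes the actin-binding protein drebrin, lies on the minus strand at chr13:55488027-55488326. Hdac11, a histone deacetylase gene, lies on the plus strand at chr6:91156565-91156864. Dll1, a Notch ligand gene, lies on the minus strand at chr17:15376883-15377182, and its other listed promoter holds no match.
Dbn1: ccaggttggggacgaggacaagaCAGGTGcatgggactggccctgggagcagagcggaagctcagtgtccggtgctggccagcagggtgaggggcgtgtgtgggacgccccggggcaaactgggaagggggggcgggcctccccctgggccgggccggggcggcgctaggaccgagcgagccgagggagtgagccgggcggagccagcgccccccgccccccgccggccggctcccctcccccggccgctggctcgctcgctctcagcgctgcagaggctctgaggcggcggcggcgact
Hdac11: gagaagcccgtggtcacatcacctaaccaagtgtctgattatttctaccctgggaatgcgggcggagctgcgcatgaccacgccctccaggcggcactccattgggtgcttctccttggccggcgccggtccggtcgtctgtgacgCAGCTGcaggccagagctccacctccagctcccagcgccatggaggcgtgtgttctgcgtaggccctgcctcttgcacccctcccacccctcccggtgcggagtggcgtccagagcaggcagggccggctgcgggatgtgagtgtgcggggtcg
Dll1: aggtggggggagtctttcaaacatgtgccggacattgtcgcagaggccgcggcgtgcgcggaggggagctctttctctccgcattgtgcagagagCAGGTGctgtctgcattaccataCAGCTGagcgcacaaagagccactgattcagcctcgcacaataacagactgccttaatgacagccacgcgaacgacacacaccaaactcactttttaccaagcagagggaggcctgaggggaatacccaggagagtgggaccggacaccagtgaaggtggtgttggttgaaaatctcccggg

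Of the genes measured with a promoter in the table, 840 of 4821 (17.4%) held CAGCTG. Among the genes that were higher in Cdkn1c-high cells than in all other cells it was in 16 of 51 (31.4%), and among those that were lower it was in 39 of 104 (37.5%). CAGGTG was in 18.3%, 23.5% and 24.04% of the same sets. Each motif was thus present in a larger share of both sets, whichever way the genes differed. Of the 24 genes with the highest ratios, 18 had a promoter in the table. CAGCTG was in 5 of these (27.8%) and CAGGTG in 3 (16.7%). The listed promoters of Myog and Rgs16 held neither motif, and the 3 promoters shown were picked for holding one.

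The Cdkn1c-high cells were a small and similar share of each library. In the young soft library they were 42 of 1360 (3.09%, exact 95% interval 2.23 to 4.15%) and in the young stiff library 42 of 1481 (2.84%, 2.05 to 3.81%). In the aged soft library they were 42 of 1333 (3.15%, 2.28 to 4.24%) and in the aged stiff library 40 of 1739 (2.30%, 1.65 to 3.12%). The 4 intervals overlap. Intervals cover counting error only.

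The other cells were divided into 3 classes for comparison. Cells with Myog of at least 10 and no Ckm but Cdkn1c under 7, called Cdkn1c-low, made up 20.8% of the young library on soft, 23.6% of the young one on stiff, 15.6% of the aged one on soft and 15.8% of the aged one on stiff. Values of the 4 libraries are given in that order throughout. Ckm-positive cells made up 27.5%, 24.6%, 52.1% and 57.3%. Cells with neither Ckm nor high Myog, called Myog-low, made up 48.6%, 49.0%, 29.2% and 24.6%. The aged libraries thus held more Ckm-positive and fewer Myog-low cells, whereas the Cdkn1c-high share did not follow that order.

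**Figure D1:**
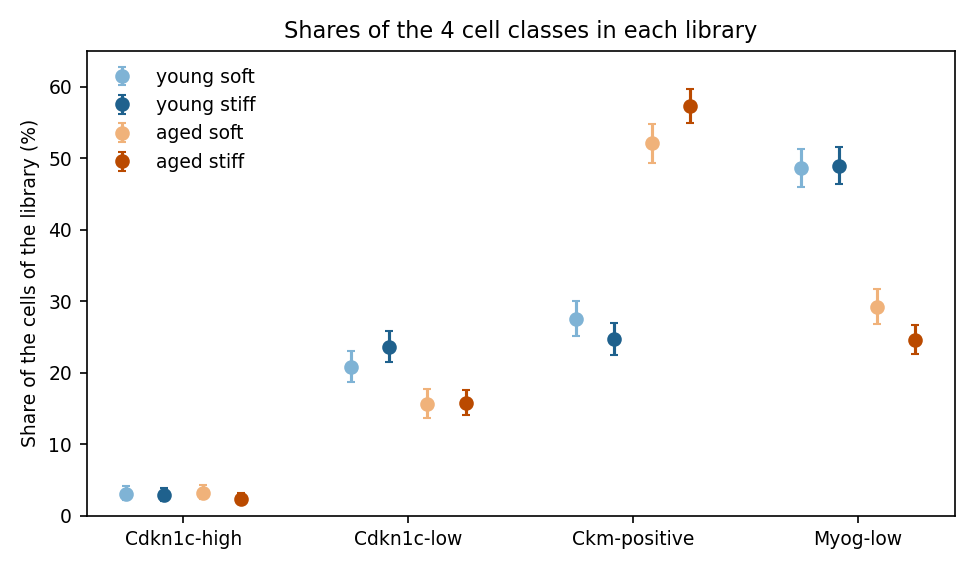
Share of the cells of each library (y axis, %) in the 4 cell classes (x axis), with 1 point per library and bars for the exact 95% binomial interval. The Cdkn1c-high share lies between 2.30% and 3.15% in all 4 libraries.

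High Cdkn1c went with high Myog. Of the Myog-low cells, 23 of 2203 (1.04%) reached the Cdkn1c limit. Of the Cdkn1c-low cells, 980 of 1115 (87.9%) had no Cdkn1c UMI (a molecule counted once), so the 2 classes were mostly separated by presence or absence of the transcript. The Ckm limit cut through a continuum: 321 of 2429 Ckm-positive cells met both other limits, and 8, 11, 7 and 16 cells in the 4 libraries stayed outside for a single Ckm UMI. Just inside the Cdkn1c limit, within 0.5 on the log2 scale, lay 4, 5, 3 and 5 cells, and just outside it, within the same distance, lay 5, 5, 1 and 4 cells.

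The libraries held 44004634 to 68244891 UMIs, with a median of 28604 to 37067 per cell. The Cdkn1c-high cells had a median of 34978, 26834, 28095 and 30383.5 UMIs, below the 38056, 30989, 30711.5 and 34778 of Cdkn1c-low cells. The median mitochondrial share was 5.50%, 5.75%, 6.12% and 6.55%. In the 4 libraries 1, 1, 0 and 0 Cdkn1c-high cells were among the 2% of cells with the most UMIs. No doublet caller was run, and doublets remain in the values. A single cell barcode occurred in 2 libraries, young soft and aged stiff.

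Of the markers listed for the cells, Cdkn1c and Myog were part of the rule and Rgs16, Dbn1 and Hdac11 were not. The markers, like the cells, were chosen with earlier results of these data known. Their levels here are therefore a description and no support for the choice. Cdkn1c had a mean of 1830.3, 1217, 1929 and 1939.9 CPM, from 2405, 1462, 2299 and 2258 UMIs, and its median over cells was 925, 735, 951 and 1244 CPM. Its log2 level ran from 7.05 to 13.19 in young soft, from 7.03 to 12.04 in young stiff, from 7.05 to 13.14 in aged soft and from 7.08 to 13.00 in aged stiff, so that the cells differed widely among themselves in the gene that chose them. Myog was more even, with a mean of 4966, 5158, 5096 and 5544 CPM.

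Rgs16, which encodes a protein that speeds the switching off of G protein signals, had a mean of 127, 107, 84.8 and 90.5 CPM in Cdkn1c-high cells and of 35.0, 30.9, 31.9 and 27.02 CPM in Cdkn1c-low cells. Every library was higher in Cdkn1c-high cells. With every cell reduced at random to 5000 UMIs (thinned), for which no cell was too shallow, a Rgs16 UMI was found in 45.2%, 38.1%, 31.0% and 32.5% of Cdkn1c-high cells. The thinned share was 13.4%, 8.60%, 14.4% and 12.0% in Cdkn1c-low cells and 0.605%, 0.552%, 1.29% and 1.17% in Myog-low cells, which serve as a background for free RNA. Without thinning the Cdkn1c-high share was 83.3%, 78.6%, 78.6% and 77.5%.

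Dbn1 had a mean of 447, 459, 471 and 480.1 CPM against 116, 110.5, 139 and 144 CPM in Cdkn1c-low cells. It was found in 81.0%, 78.6%, 78.6% and 70.0% of the thinned Cdkn1c-high cells and in 27.2%, 28.9%, 32.7% and 28.4% of the thinned Cdkn1c-low cells. Hdac11 had a mean of 63.6, 61.0, 77.0 and 80.8 CPM against 24.6, 22.4, 27.2 and 28.6 CPM. All 3 markers were thus highest in Cdkn1c-high cells among the 4 classes in each library. In Ckm-positive cells Dbn1 had 118, 109, 90.6 and 75.1 CPM, which in the young libraries was close to its level in Cdkn1c-low cells.

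The label of the cells as early and committed was first set against Pax7. Pax7, the transcription factor of muscle stem cells, had a mean of 3.70, 3.63, 9.34 and 18.1 CPM, against a mean of 123 CPM over the 4 libraries in Myog-low cells. In thinned cells a Pax7 UMI was found in 0 of 42, 1 of 42, 3 of 42 and 0 of 40 Cdkn1c-high cells, and a count of 0 of 42 allows up to 7.14% of cells with a Pax7 UMI at that reduced depth. In Myog-low cells the share was 44.8%, 40.7%, 35.0% and 34.1%. The unthinned Pax7 share of Cdkn1c-high cells was 9.52%, 9.52%, 16.7% and 35.0%, so that aged stiff held more cells with a trace of it.

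Against all other cells of the same library, 6081 genes were measured, those with a mean of at least 20 CPM on either side. Of these, 65 (1.07%) were higher and 139 (2.29%) lower by 2 times or more in 4 of 4 libraries, as ratios of mean CPM + 5. The median log2 ratio of all measured genes was 0.05. The genes below had the most extreme ratios among those called, and their ratios are means of the 4 libraries.

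Genes of the cytoskeleton and of signalling led the higher side. Pak3, a kinase acting downstream of Rac and Cdc42, had 68.4, 76.0, 60.3 and 56.7 CPM, against a mean of 6.12 in other cells (log2 ratio 2.67). It was unevenly spread, with a UMI in 15, 21, 15 and 17 cells. Dbn1 had a log2 ratio of 2.58. Nefh, the neurofilament heavy chain, had 70.4, 63.7, 48.8 and 80.8 CPM against 7.66 (log2 ratio 2.49).

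Dync1i1, an intermediate chain of the dynein motor, and Chn2, a Rac-directed GTPase-activating protein, had log2 ratios of 2.08 and 2.12. Marcksl1, an actin-binding substrate of protein kinase C, reached 1.75. Myl9, a regulatory light chain of smooth muscle and nonmuscle myosin, had 186, 281, 564 and 422 CPM (log2 ratio 1.77). It was higher in both aged libraries than in both young ones, as it was in Cdkn1c-low cells at 66.8, 85.2, 165 and 187 CPM. Smooth muscle actin, Acta2, had 5137, 5419.6, 4464 and 4534 CPM against a mean of 1542 in other cells.

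Acta2 also stands in the list of smooth muscle and pericyte markers, whose summed level was 5219, 5594, 4589 and 4701 CPM in Cdkn1c-high cells and 1851, 1953, 1757 and 1584 CPM in other cells. Of the 10 markers in the tables, 2 had no UMI in Cdkn1c-high cells and 8, these included, had a mean under 20 CPM, among them the pericyte receptor Pdgfrb at 0.933, 1.53, 1.16 and 0.653 CPM. Of 7 endothelial markers 5 had no UMI, as had 6 of 13 immune and 4 of 10 fibro-adipogenic ones. The summed level of the endothelial markers was 0.933, 6.49, 2.62 and 5.15 CPM, and of the immune markers 1.53, 2.80, 6.57 and 9.49 CPM. The fibro-adipogenic markers summed to 104.5, 157, 225 and 168 CPM, against 168, 169, 208 and 158 in other cells. Schwann and neural markers summed to 81.7, 68.2, 81.1 and 76.0 CPM, against 54.4, 52.9, 54.4 and 46.8. Adipocyte markers summed to 32.3, 50.4, 39.0 and 46.5 CPM, against 98.2, 96.6, 47.8 and 45.6.

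Further genes were transcription factors, ligands and surface proteins. Sox8, a transcription factor expressed in muscle stem cells, had 81.0, 102, 83.1 and 104 CPM against 15.0 (log2 ratio 2.28). The matrix protein gene Olfml2b had 225, 226, 212 and 202 CPM against 38.2 (log2 ratio 2.36). Jam3, an adhesion protein, had 275, 253, 265 and 249 CPM against 74.3 (log2 ratio 1.74). These levels were nearly the same in the 4 libraries.

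The ligand genes Wnt9a and Sema6b had log2 ratios of 1.87 and 1.88. Car2, a cytosolic carbonic anhydrase, had 181, 172, 257 and 253 CPM against 42.9 (log2 ratio 2.18). Tgfb2, a TGF-beta ligand, had 849.9, 943, 529 and 648 CPM against 274 (log2 ratio 1.47), while Tgfb1, its family member, was lower, at 9.79, 16.9, 13.5 and 14.0 CPM against 68.1. The 2 ligands of one family thus lay on opposite sides.

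The lower side held genes of mature muscle. Casq1, the calcium store protein of the sarcoplasmic reticulum, had 3.31, 32.0, 30.9 and 21.0 CPM against a mean of 443 in other cells (log2 ratio -4.16). Tcap, the titin cap of the Z-disc, had 29.8, 75.6, 64.0 and 36.8 CPM against 520.1 (log2 ratio -3.20). Mb, myoglobin, had 599, 794, 673 and 448 CPM against 3801 (log2 ratio -2.59), with medians over cells of 378, 360.04, 124 and 150.1 CPM. Myl1, an alkali light chain of myosin, had 1292, 1324, 1665 and 1983 CPM against 10164 (log2 ratio -2.66). Each was lower in all 4 libraries. Tcap was unevenly spread, with 83.7% of its young soft level in 1 cell.

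Spp1, which encodes the secreted protein osteopontin, was lower for another class: it had 293, 968, 541 and 477 CPM against a mean of 7894 in Myog-low cells and 453 in Ckm-positive cells. Ly6d, a surface antigen gene, had a single UMI in all Cdkn1c-high cells.

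**Figure D2:**
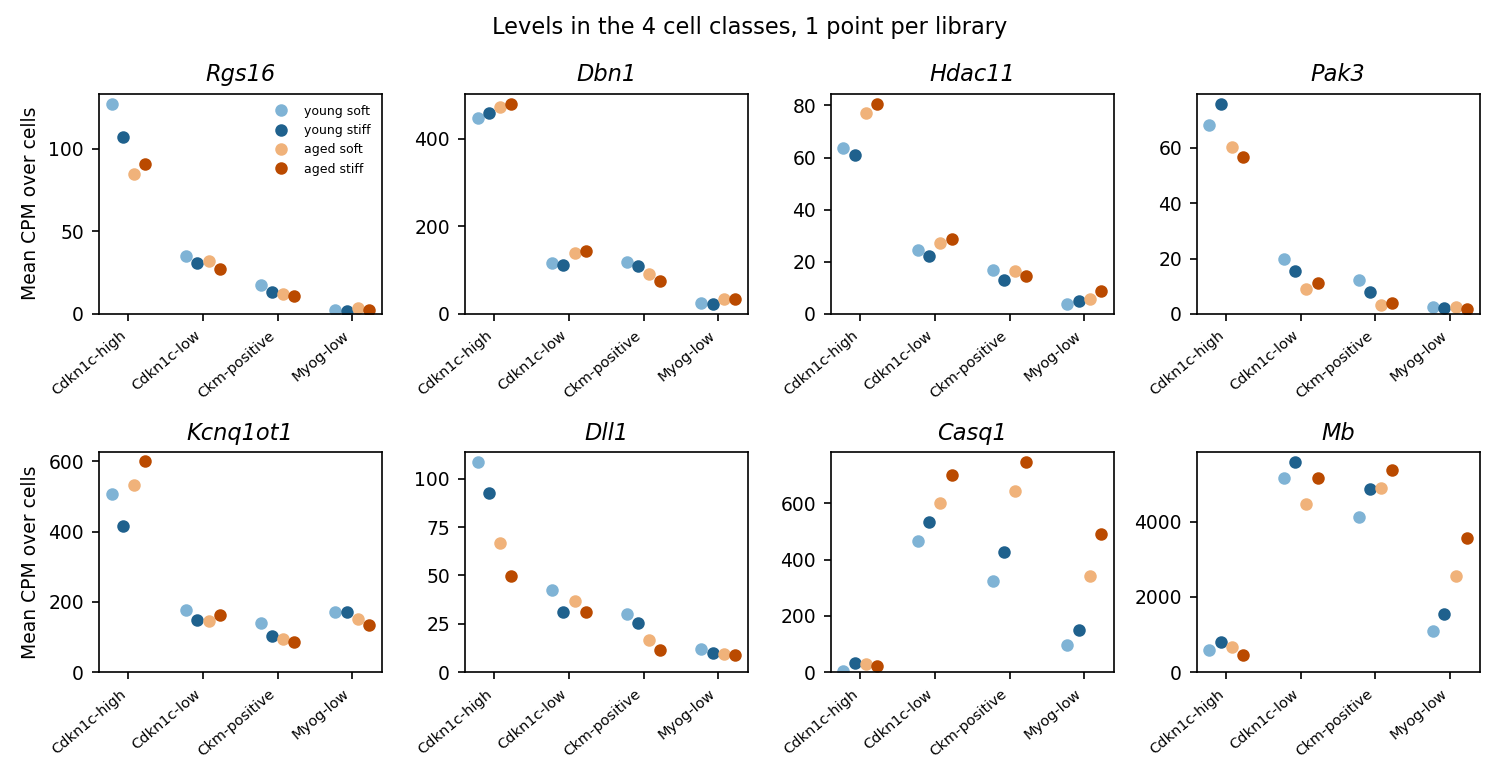
Mean CPM over cells (y axis, from 0) of 8 genes in the 4 cell classes (x axis), with 1 point per library. Rgs16, Dbn1, Hdac11, Pak3, Kcnq1ot1 and Dll1 are highest in Cdkn1c-high cells of every library, while Casq1 and Mb are lowest there.

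Cdkn1c-low cells are the nearest class, since they differ from the Cdkn1c-high cells in the rule by Cdkn1c alone. Of 5986 genes measured, 195 (3.26%) were higher and 376 (6.28%) lower in Cdkn1c-high cells by 1.5 times or more in 4 of 4 libraries, with a median log2 ratio of 0.08 over all measured genes. The largest ratios after Cdkn1c itself were those of Pak3 (1.93), Dbn1 (1.83), Plin3 (1.78), a lipid droplet coat protein, and Chn2 (1.75). Heg1, a membrane receptor, reached 1.68, and Drd4, a dopamine receptor, 1.65. Myog was 0.79 higher, with 2789, 2801, 3277 and 3159 CPM in Cdkn1c-low cells.

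The lowest ratios named here were again those of muscle genes. Casq1 was lowest, at a log2 ratio of -4.63, followed by the LIM protein gene Fhl1 at -4.13, the muscle ankyrin repeat gene Ankrd23 at -3.81 and Tcap at -3.54. After thinning, Casq1 was found in 2.38%, 4.76%, 9.52% and 12.5% of Cdkn1c-high cells and in 50.9%, 52.4%, 49.0% and 54.2% of Cdkn1c-low cells. Both classes lacked Ckm by the rule.

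**Figure D3:**
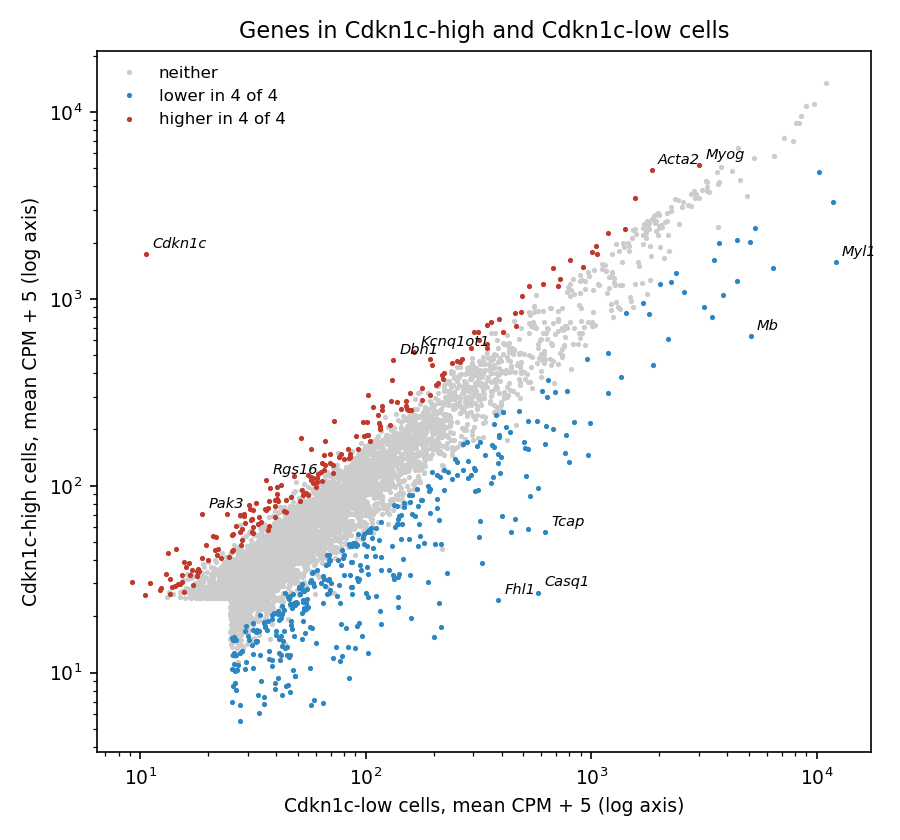
Mean CPM + 5 of each gene, as the mean of 4 libraries, in Cdkn1c-low cells (x axis, log) and Cdkn1c-high cells (y axis, log), with genes at least 1.5 times higher or lower in 4 of 4 libraries coloured. The 376 lower genes reach farther from the diagonal than the 195 higher ones, Cdkn1c excepted.

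Of the myogenic regulators, Myog was the only one of 18 measured that was called higher against all other cells, and it was part of the rule. Myf5, expressed in stem cells and early myoblasts, was lower, at 29.5, 10.2, 17.5 and 13.8 CPM against 79.2. Myf6, a late regulator, was lower too, at 5.97, 8.30, 10.2 and 10.48 CPM against 59.6. Myod1 had 1289, 1234, 1500.3 and 1181 CPM against 905 and was not called. Mef2c, a partner of the myogenic factors, had 511, 420.1, 232 and 337 CPM and was lower than the 1618, 1647, 1061 and 1098 CPM of Cdkn1c-low cells. Myf6 and Mef2c were thus the regulators called lower than in Cdkn1c-low cells.

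Among sarcomere genes, 18 of 42 measured were lower and 1, Acta2, was higher than in all other cells (list median -1.27). Against Cdkn1c-low cells 36 of 43 were lower and 2, Acta2 and Actc1, were higher (median -1.64). Actc1, the cardiac actin of developing muscle, had 3847, 3440.1, 2683 and 3944 CPM against 2072, 1918, 964 and 1265. Acta1, the actin of adult skeletal muscle, had 5231, 4390.5, 4577 and 4982 CPM against 10479.5, 10823, 9512 and 9972. The 2 actin genes of early muscle and that of adult muscle lay on opposite sides in every library.

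Of late metabolism and calcium handling genes, 13 of 29 were lower against all other cells (median -1.07) and 21 of 28 against Cdkn1c-low cells (median -1.26), with none called higher. Cox8b, a muscle subunit of cytochrome c oxidase, had 83.4, 78.0, 57.1 and 27.4 CPM against 438, 481, 424 and 473 in Cdkn1c-low cells. The 13 mitochondrially encoded genes were called in neither direction (median 0.12 in both comparisons). Of the acetylcholine receptor and endplate genes, 3 of 11 were lower than in Cdkn1c-low cells, namely the receptor subunits Chrnd and Chrng and the endplate kinase Musk. Against Myog-low cells, 4 of 42 measured sarcomere genes were higher by 2 times or more and none lower (median 0.09). Of 27 late metabolism and calcium handling genes none was higher and 2 were lower (median -0.10). Over all genes measured in that comparison, 2.3% were higher and 4.87% lower.

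Of the fusion proteins of the muscle membrane, neither Mymk nor Mymx was called. Mymk, the membrane protein myomaker, had 1502, 1387, 1562 and 1797 CPM against a mean of 1341 in other cells. Mymx, myomerger, had 109.9, 88.6, 159 and 124 CPM against 99.4. Against Cdkn1c-low cells 1 of 19 fusion and adhesion genes was higher, Jam3, and 4 were lower, Jam2, Itga7, Cav3 and Dysf. Jam2 and Jam3, related adhesion proteins, therefore lay on opposite sides.

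Actin regulators were partly higher than in Cdkn1c-low cells. Of 30 measured, 5 were higher, namely Dbn1, Cfl1, Marcksl1, Actb and Actg1, and 2 were lower, Tmsb10 and Limch1 (median 0.37). Actb, the cytoplasmic beta actin, had 2249, 2645, 1993 and 2062 CPM against 1164, 1225, 1164 and 1167. Tmsb10, a thymosin that binds actin monomers, had 1961, 1134, 1464 and 1860.2 CPM against 3963, 3205, 3207 and 3583.

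Of the cell cycle inhibitors and pocket proteins, Cdkn1c alone was called against all other cells, of 15 measured, and it was part of the rule. Cdkn1a, which encodes the inhibitor p21, had 1779.6, 1666, 1912 and 2164 CPM against 2019, 2108, 1967 and 1965 in Cdkn1c-low cells and was not called. Btg1, an antiproliferative gene, was higher than in Cdkn1c-low cells, at 537, 537, 591 and 503 CPM against 249, 262, 333 and 303. So was Cdk4, a cyclin-dependent kinase of G1, at 263, 334, 272 and 242 CPM against 149.8, 154, 139 and 142.

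G2 and M phase genes were not called in either direction against all other cells (0 of 23) or Cdkn1c-low cells (0 of 22), but varied between cells. Against Ckm-positive cells, 821 of 5923 genes (13.9%) were higher and 449 (7.58%) lower by 1.5 times or more. All 22 measured G2 and M phase genes were higher in Cdkn1c-high cells (median 2.23). Each of the 22 reached a mean of 20 CPM in Cdkn1c-high cells, and the other 8 of 30 did not. In Ckm-positive cells the 30 summed to 258, 75.5, 164 and 108 CPM. The filter thus favoured genes higher in Cdkn1c-high cells, and the count of 22 carries no weight by itself. Top2a, the DNA topoisomerase of dividing cells, had at least 10 UMIs in 6 of 42, 3 of 42, 2 of 42 and 4 of 40 Cdkn1c-high cells, a limit chosen after the values were seen. These few cells held 98.2%, 93.2%, 91.7% and 98.2% of the Top2a UMIs of the class, and every one of them had a Mki67 UMI.

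The share with at least 10 Top2a UMIs was 15 of 166 Cdkn1c-high cells (9.04%), 59 of 1115 Cdkn1c-low cells (5.29%), 16 of 2429 Ckm-positive cells (0.659%) and 556 of 2203 Myog-low cells (25.2%). The Top2a-positive Cdkn1c-high cells had a median of 46856.5, 35645, 29156 and 36811.5 UMIs, against 33761, 26444, 27704 and 30030 in the others. Their median Cdkn1c was 527, 352, 4769 and 150 CPM against 1109, 744, 931 and 1421. They thus held more UMIs than the others in every library and less Cdkn1c in all but aged soft, where there were 2 such cells. Median Myog was also lower in them, at 4293, 3325, 3864 and 1797 CPM against 5091, 5436, 5362 and 6021. More UMIs were found in Top2a-positive Myog-low cells too, at 37228, 31274, 30951.5 and 31709 against 27495, 21699, 23275 and 25833. The same held in Cdkn1c-low cells except in aged soft. Whether the Top2a-positive Cdkn1c-high cells are doublets was not tested.

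Of 14 measured genes of the Notch pathway, in which a ligand on one cell activates a receptor on its neighbour, the ligand Dll1 was the only one called against all other cells. Dll1 had 109, 92.5, 66.9 and 49.9 CPM against 42.4, 31.1, 36.9 and 31.1 in Cdkn1c-low cells and a mean of 10.2 in Myog-low cells. The receptor Notch3 had 0.504, 5.99, 6.81 and 10.4 CPM against 102 in Myog-low cells, and the Notch target Heyl 17.3, 12.7, 14.1 and 32.3 CPM against 118. Against Myog-low cells, where 149 of 6467 genes (2.3%) were higher and 315 (4.87%) lower by 2 times or more, 2 of 18 Notch genes were higher and 4 were lower. Dll1 was thus highest in Cdkn1c-high cells, and Notch3 and Heyl were higher in Myog-low cells.

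Genes of the stem cell state as a list gave a less uniform picture than Pax7 alone in thinned cells. Against all other cells Pax7 was not called, nor was any of the 16 measured genes of satellite cell quiescence and self-renewal (median -0.54). Against Cdkn1c-low cells 1 of 12, the laminin receptor subunit Itga7, was lower (median 0.27), and against Myog-low cells 7 of 19 were lower (median -0.93).

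Imprinted genes held 2 of 21 called higher against all other cells, Cdkn1c and Kcnq1ot1, and none lower. Cdkn1c was part of the rule, so its call was fixed. Kcnq1ot1 had 507, 416, 533 and 601 CPM against 178, 149, 145 and 163 in Cdkn1c-low cells (log2 ratio 1.66). It was found in 40 of 42, 39 of 42, 40 of 42 and 37 of 40 cells, and its log2 ratio against all other cells was 1.88. Kcnq1ot1 lies antisense within Kcnq1, and the sources used here do not state how strand was treated in counting, so that reads of the 2 genes may not be told apart.

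Mest and Plagl1, an imprinted hydrolase-like gene and an imprinted zinc finger gene, were also higher than in Cdkn1c-low cells. With Kcnq1ot1 and Cdkn1c, whose call the rule fixed, they make 4 of 20. Mest had 133, 113, 219.8 and 209.7 CPM against 57.7, 56.6, 67.8 and 60.6. Plagl1 had 50.2, 45.9, 53.3 and 43.6 CPM against 18.3, 15.1, 15.6 and 17.6. H19, an imprinted noncoding RNA, had 1478, 1537, 1675 and 1911 CPM against a mean of 2182 in other cells, and Igf2, its imprinted neighbour that encodes a growth factor, had 34.0, 36.7, 29.7 and 38.1 CPM against 22.5. Neither was called.

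Of 19 measured matrix and matrix receptor genes, 4 were higher than in Cdkn1c-low cells, Col6a1, Col6a2, Sparc and Itga6, and none was lower (median 0.50). Against all other cells the median was -0.59, with 1 of 24, Thbs1, lower. Of 19 targets of YAP and TAZ, the mechanically regulated coactivators, Tgfb2 was higher and Ankrd1 and Amotl1 were lower than in all other cells. Ankrd1 had 267, 365, 612 and 499 CPM against 1434, 1750.03, 2201 and 2132 in Cdkn1c-low cells. Of 19 p53 targets Gadd45b was higher and Eda2r lower.

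None of 42 genes of deadenylation, decapping and decay was called against all other cells (median 0.24), and none of 41 against Cdkn1c-low cells (median 0.25). Of 19 AU-rich element binding proteins, Zfp36l2 was lower than in all other cells, at 11.6, 13.0, 13.2 and 10.2 CPM, against 130.5 CPM in Myog-low cells. Hdac11 was the only histone deacetylase called, of 8 measured, in both comparisons.

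**Figure D4:**
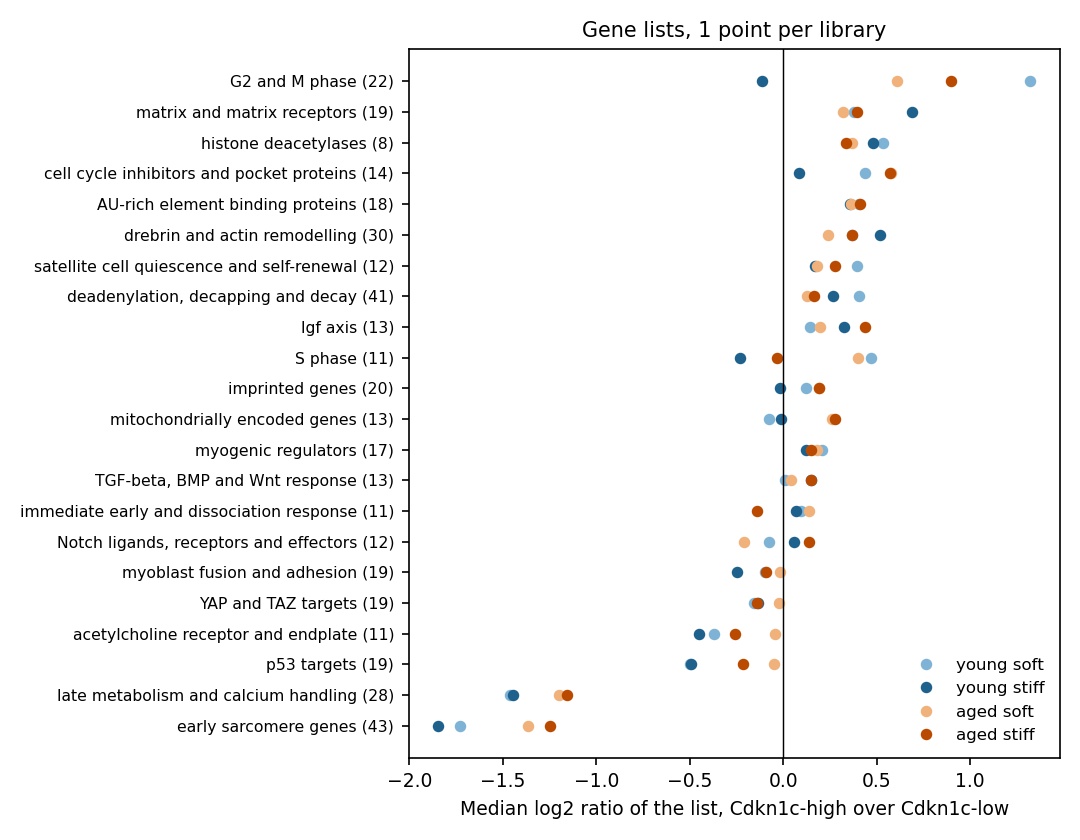
Median log2 ratio of mean CPM + 5, Cdkn1c-high over Cdkn1c-low cells (x axis), for gene lists with at least 5 measured members (y axis, number measured in brackets), with 1 point per library. The sarcomere and late metabolism lists lie below -1 in all 4 libraries, and the G2 and M phase list runs from -0.12 in young stiff to 1.32 in young soft.

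The Ckm-positive cells that met the Myog and Cdkn1c limits, 321 in all, are the cells that the Ckm limit left out, a class chosen after the data were seen. Against them, 432 of 5785 genes (7.47%) were higher and 295 (5.1%) lower in Cdkn1c-high cells by 1.5 times or more in 4 of 4 libraries. Their mean Cdkn1c was 1253 CPM and their mean Myog 3794 CPM. Dbn1 had a mean of 268 CPM in them, Rgs16 30.6 and Kcnq1ot1 211, all below the Cdkn1c-high cells. Casq1 had 95.6, Myl1 6944 and Tnnc2, the fast troponin C, 4192, all above them. G2 and M phase genes were higher in the Cdkn1c-high cells for 20 of 22 measured (median 2.57). These 22 had passed the 20 CPM filter in the Cdkn1c-high cells, which favours that direction. All 30 listed summed to 109, 89.1, 113 and 84.0 CPM in the 321 cells.

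Inside the class, libraries were compared on 40 to 42 cells each. Stiff against soft in young cells, 231 of 5949 genes (3.88%) were higher and 386 (6.49%) lower by 1.5 times or more. In aged cells 257 of 5864 (4.38%) were higher and 183 (3.12%) lower. The same comparisons gave 24 (0.42%) and 34 (0.597%) genes in either direction in the more numerous Cdkn1c-low cells, and 10 (0.166%) and 12 (0.216%) in all other cells. The 2 stiffness comparisons, which share no library, had 17 higher genes in common, 7.36% of the young and 6.61% of the aged ones, and 13 lower genes, 3.37% and 7.10%. Of the genes higher in young cells 4 were lower in aged ones, and of those lower in young cells 31 were higher in aged ones.

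Many of the leading genes of these comparisons rested on a single cell. Dqx1, a helicase-related gene, had 1.66, 74.7, 33.0 and 84.1 CPM, with 90.2% of the aged stiff level in 1 cell. Xirp2, an actin-binding protein of muscle, had 0, 6.496, 154 and 3.04 CPM, with 98.2% of the aged soft level in 1 cell. Golga3, a Golgi protein, had 28.6, 109, 34.6 and 25.4 CPM, with 70.7% of the young stiff level in 1 cell. For these genes 1 cell carried most of the level of a library.

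G2 and M phase genes differed with stiffness in opposite directions at the 2 ages, and S phase genes did not. Of 28 G2 and M phase genes measured, 24 were lower on stiff in young cells (median -0.99), and of 22 measured in aged cells 17 were higher (median 0.82). The cells with at least 10 Top2a UMIs numbered 6, 3, 2 and 4. S phase genes were lower on stiff for 13 of 19 in young (median -0.69) and 4 of 13 in aged cells (median -0.30). The part of these few cells in the difference between libraries was not tested.

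Aged against young on soft, 403 of 5997 genes (6.72%) were higher and 543 (9.05%) lower by 1.5 times or more. On stiff 384 of 5920 (6.49%) were higher and 310 (5.24%) lower. Either direction together held 402 (6.87%) and 317 (5.5%) genes in Cdkn1c-low cells and 871 (14.2%) and 974 (16.1%) in all other cells. The 2 age comparisons, which share no library, had 91 higher genes in common, 22.6% of those on soft and 23.7% of those on stiff, and 82 lower ones, 15.1% and 26.5%. Of the genes higher on soft 6 were lower on stiff, and of those lower on soft 25 were higher on stiff.

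Dll1 was lower in the aged cells on both surfaces. Its UMIs numbered 153, 106, 73 and 59, and the ratio of UMIs, aged over young, was 0.621 on soft (exact interval 0.463 to 0.826) and 0.534 on stiff (0.382 to 0.741). The level was spread over 37 of 42, 33 of 42, 30 of 42 and 26 of 40 cells, with at most 11.1% in 1 cell. In thinned cells Dll1 was found in 45.2%, 35.7%, 28.6% and 17.5% of Cdkn1c-high cells. In Cdkn1c-low cells Dll1 had 42.4, 31.1, 36.9 and 31.1 CPM, nearly equal on stiff at both ages. In Ckm-positive cells it had 30.2, 25.7, 16.5 and 11.8 CPM and was also lower in both aged libraries.

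Col1a2, a collagen chain, was higher with age, at 13.1, 22.2, 87.2 and 103 CPM from 21, 23, 82 and 115 UMIs, in 7, 11, 16 and 23 cells. Car3, a muscle carbonic anhydrase, was lower, at 129.9, 189, 18.7 and 54.8 CPM, and 50.2% of the young stiff level was in 1 cell. In Cdkn1c-low cells Car3 was also lower with age, at 680, 549, 99.4 and 87.9 CPM. Exosc2, a subunit of the RNA exosome, was lower at 174, 191, 27.8 and 79.8 CPM, against 85.1, 87.0, 67.1 and 68.0 CPM in Cdkn1c-low cells.

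To name genes with more counts, those past 1.5 times on both surfaces with at least 300 UMIs in all Cdkn1c-high cells were ranked by the smaller of their 2 ratios, a rule chosen after the values were seen. It held 33 higher and 27 lower genes. Ifitm3, an interferon-inducible membrane protein, led the higher ones at 38.3, 54.5, 182 and 164 CPM. Maged2 had 81.6, 86.8, 179 and 200.3 CPM, and Rbm3, a cold-inducible RNA-binding protein, had 449, 377, 888 and 909 CPM. Atp2a1, the calcium pump of fast muscle, had 134, 97.2, 284 and 342 CPM.

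Most of these differences were present in the neighbouring class too. In Cdkn1c-low cells Ifitm3 had 47.7, 47.7, 193 and 161 CPM and Rbm3 had 233, 213, 553 and 597 CPM. Maged2, in contrast, had 139.5, 145, 134 and 132 CPM there.

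Among the lower genes, Fst, the inhibitor of activins and myostatin, had 127, 201, 46.3 and 61.4 CPM. Gadd45b, a stress-inducible gene, had 251, 226, 119 and 121 CPM, and Piezo2, a mechanically gated ion channel, had 81.4, 88.4, 39.5 and 44.3 CPM. These genes were lower in both aged libraries in Cdkn1c-low cells too. Fst had 202, 149, 73.8 and 73.5 CPM there, Gadd45b 106, 107, 65.4 and 62.0, and Piezo2 33.8, 35.0, 24.2 and 22.1. Ctrb1, which encodes chymotrypsinogen, had 323, 331, 124 and 142 CPM, against 94.9, 142, 187 and 179 CPM in Cdkn1c-low cells. For Ctrb1 the 2 classes thus ran in opposite directions with age.

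**Figure D5:**
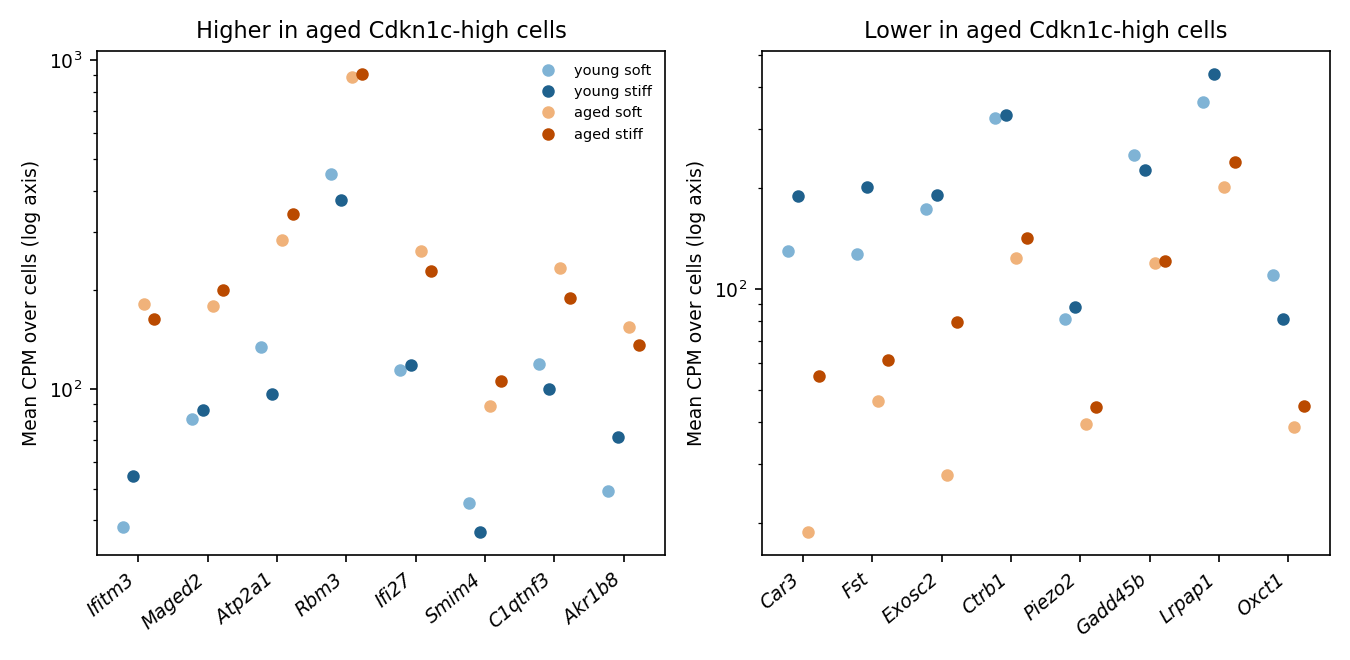
Mean CPM over Cdkn1c-high cells (y axis, log) of the 8 genes ranked first in each direction by the smaller of their 2 age ratios (x axis), with 1 point per library. Both aged libraries lie above both young ones in the left panel and below them in the right panel, which the choice of genes fixes.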

How the data were processed

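The labels' protocols describe 4 single-cell RNA libraries made with 10x Chromium 3' v3 reagents. Per the submitters' processing notes, the tools included Cell Ranger 6.1.2 and Partek, whose roles are not given. The genome build and annotation are not given in the sources used here. The deposited values are log2(CPM + 1) per cell over 13772 genes, a unit found from the values. UMIs were recovered as multiples of the commonest value above 0 in a cell, and 99.95% or more of values were whole within 0.05. They served for depth, thinning and intervals. Values of 11 symbols, such as Aldoa and Sept2, fell between whole UMIs. All deposited cells were used.

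Mean CPM per class and library was compared as log2 ratios with a pseudocount of 5 CPM, which understates differences of low genes. With 1 library per group no test was run. Named genes were the listed markers, the 24 highest and 16 lowest ratios against all other cells, the 12 highest and 8 lowest against Cdkn1c-low cells, the 6 highest and 6 lowest of each library comparison, up to 6 members per list, and 15 genes named in any case. A gene that the rule named is not reported here. Any other gene, and the second age rule, was picked once values had been seen. The cells, their markers and the 29 lists were chosen with earlier results of these data known. Alternatives changed the pseudocount, filters, scaling, limits and depth. Software was Python 3.11, numpy, pandas, scipy and matplotlib.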

Additional observations from a re-analysis of the deposited data

Results flagged for a closer look

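Some genes moved in opposite directions in the paired comparisons of libraries inside the Cdkn1c-high cells. The differences were not tested, since each group is 1 library. The log2 ratio of stiff over soft in aged cells less that in young cells was 2.66 for Cenpf, 4.51 for Hist1h2ap and 2.86 for Tpx2. As the same 4 libraries enter, the log2 ratio of aged over young on stiff less that on soft was again 2.66 for Cenpf, 4.51 for Hist1h2ap and 2.86 for Tpx2. It was 2.45 for Hist1h1b, -2.43 for Mgp and 1.66 for Pacsin3. Hist1h2ap had a UMI in 7, 5, 3 and 8 cells, with 84.9% of its aged stiff level in 1 cell, and Hist1h1b had 93.7% of its aged stiff level in 1 cell.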

How the results depend on the processing

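No paired analysis was possible because each group is 1 library and the groups share a single replicate number. Counts below are higher and lower, first for stiff over soft in young and aged cells, then for aged over young on soft and stiff. With a pseudocount of 20 they were 61 and 159, 73 and 45, 201 and 235, and 157 and 117, while 34 and 76 genes were called against all other cells and 111 higher against Cdkn1c-low cells. With at least 50 CPM they were 67 and 124, 64 and 46, 177 and 208, and 154 and 119. With no filter on low values they were 690 and 932, 763 and 647, 971 and 1211, and 911 and 815. With a pseudocount of 1 the lower aged stiffness count was 288, and with Cdkn1c of at least 8 it was 348. With the limits applied to cells thinned to 10000 UMIs, 144 genes were higher on stiff in young and 122 in aged cells, 242 were higher with age on stiff, the aged stiff share was 3.17%, and Hist1h2ap in aged stiff over soft turned to -1.45.

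Without a limit on Ckm, chosen after seeing the data, the counts were 65 and 102, 18 and 23, 184 and 291, and 134 and 202, with 84 higher and 180 lower against Cdkn1c-low cells. The shares were then 7.06%, 7.56%, 9.98% and 8.40%. Ckm (1.26) and Sln (0.10) turned higher than in all other cells and Jam2 (0.071) than in Cdkn1c-low cells, Dqx1 turned to -1.90 with stiffness in young cells and -1.14 with age on soft, and Meg3 to -0.45 with age on stiff. With Cdkn1c of at least 6, Dqx1 with age on soft was -0.72. The cause was not tested. Leaving out each library in turn gave 67 to 89 higher and 150 to 173 lower genes against all other cells, and 229 to 283 and 408 to 453 against Cdkn1c-low cells. The small number of cells limits every comparison of libraries.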
